A study of Mus musculus with 21 samples.

Results

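The regions described here are the RPA peaks whose summit, the base of highest signal, lay at least 2 kb and at most 50 kb from the body of the nearest RefSeq protein-coding gene. They were 287 of the 683 peaks in 6 deposited lists, and are called members below. Of the other peaks, 216 lay within 2 kb of a coding gene or inside one and 180 lay farther than 50 kb away. The cells were passage-immortalized mouse embryonic fibroblasts (MEFs), all of the genotype ATR+/-, so the untreated controls also had a single functional Atr copy. RPA32, a subunit of RPA, was precipitated from sheared chromatin, and 13 ChIP and 8 input libraries were sequenced. The groups were DMSO for 18 h, 0.2 µM aphidicolin (APH) for 18 h, 1 µM of the ATR inhibitor ATR-45 (ATRi) for 18 h, both drugs for 9 h, both drugs for 18 h, and ATRi for 18 h in MEFs with TIMELESS suppressed (shTIM). Each group had 2 ChIP libraries, except for 3 with ATRi+APH at 18 h. The ChIP libraries used 3 lots of the antibody, all 3 of them for ATRi+APH at 18 h. Both shTIM libraries came from 1 lot, so lot and knockdown cannot be told apart for that list. The APH list also rests on 1 lot. The level of TIMELESS was not analysed here. Each list was made by the authors from all libraries of its group, so no value below has a replicate error, and a peak is not a replicate of a treatment. No statistical test was run.

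RPA is the heterotrimer that coats single-stranded DNA. Such DNA is exposed when a replicative helicase runs ahead of a stalled polymerase, and again when a collapsed fork is resected. The kinase ATR, recruited through RPA, keeps stalled forks from collapsing. Aphidicolin slows replicative DNA polymerases, and TIMELESS belongs to the complex that couples polymerase to helicase.

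Promoter sequences, from 250 bases before to 50 after a gene's start, were taken from RefSeq on GRCm38.p6, and 4 member peaks overlapped such a window. All 4 were peaks of ATRi+APH at 18 h. The sequences are shown because they are the stretches of DNA under member peaks that these windows contain, and 3 of them belong to predicted genes named here only for their sequence.

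At chr4:118547156-118547455, on the plus strand, the window of Gm40237 lay near the coding gene Tmem125, and 206 of its bases were inside a 7.67-fold member peak. Capitals mark a 20-base word that recurred 7 times at a spacing of 44 bases.
Gm40237: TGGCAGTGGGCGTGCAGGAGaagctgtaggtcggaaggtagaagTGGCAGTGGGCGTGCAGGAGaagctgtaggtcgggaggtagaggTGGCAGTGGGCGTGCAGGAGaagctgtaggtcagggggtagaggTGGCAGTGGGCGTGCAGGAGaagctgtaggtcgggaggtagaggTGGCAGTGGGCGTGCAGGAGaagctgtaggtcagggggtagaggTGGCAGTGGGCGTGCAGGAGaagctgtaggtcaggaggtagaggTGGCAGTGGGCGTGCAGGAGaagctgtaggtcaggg
Shifted by 88 bases, this window matched itself at 97.6% of positions. Of 32851 RefSeq promoter windows, 0.0548% matched themselves at 80% or more of positions at some shift up to 100 bases, and 1.45% held any 20-base word at least 3 times.

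At chr15:81216889-81217188, on the plus strand, the window of Gm31608 lay whole inside a 19.5-fold member peak near Mchr1, which encodes a receptor of melanin-concentrating hormone. Capitals mark 4 runs of at least 3 C separated by 1 to 7 bases, which on the other strand spell the G-quadruplex pattern.
Gm31608: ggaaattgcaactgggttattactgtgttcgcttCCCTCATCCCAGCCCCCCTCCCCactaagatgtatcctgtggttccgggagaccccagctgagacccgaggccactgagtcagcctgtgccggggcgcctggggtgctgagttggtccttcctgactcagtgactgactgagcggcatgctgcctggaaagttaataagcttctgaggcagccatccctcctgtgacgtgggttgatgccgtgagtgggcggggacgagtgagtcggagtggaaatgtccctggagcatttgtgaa
The pattern was present on either strand in 18.6% of all promoter windows.

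The window of Gm35889 at chr7:35156787-35157086, on the minus strand, lay whole inside the 45.5-fold member peak near Slc7a10, and 76 bases of the Ptgr2 window, at chr12:84285046-84285121 on the plus strand, lay inside a 29.2-fold member peak.
Gm35889: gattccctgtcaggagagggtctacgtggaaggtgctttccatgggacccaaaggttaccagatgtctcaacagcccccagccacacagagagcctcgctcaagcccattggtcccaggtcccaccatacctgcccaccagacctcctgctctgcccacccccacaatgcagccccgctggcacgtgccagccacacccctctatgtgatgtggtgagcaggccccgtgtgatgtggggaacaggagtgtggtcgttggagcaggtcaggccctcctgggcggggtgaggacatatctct
Ptgr2: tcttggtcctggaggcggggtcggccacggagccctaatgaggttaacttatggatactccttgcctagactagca
Neither held the G-quadruplex pattern or a word of 20 bases repeated within the window. Runs of short motifs were searched on either strand, and none of these windows held one. In a row, 3 copies of CAGAGG were found in 0.0213% of all promoter windows, 3 of CACAG in 0% of them, and 3 of the telomere unit TTAGGG also in 0%. The share with 3 copies of GGA was 3.03%, with 10 copies of CA 0.234% and with 10 of GA 0.0761%. Motifs this rare say little when they are absent from a few windows, and nothing of the member peaks as a whole. Sequence at the summits of the other members was not analysed here.

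Members made up 42.0% of all peaks (exact Clopper-Pearson 95% interval 38.3 to 45.8%, which covers counting error over peaks only). Bases 2 to 50 kb from a coding gene were 21.8% of the annotated span of chromosomes 1 to 19 and X. In DMSO, 10 of 46 peaks were members (21.7%, interval 10.9 to 36.4%). In ATRi, 31 of 56 were members (55.4%, interval 41.5 to 68.7%). In ATRi+APH at 9 h the count was 36 of 65 (55.4%, interval 42.5 to 67.7%). At 18 h of the same treatment it was 130 of 327 (39.8%, interval 34.4 to 45.3%). In ATRi+shTIM it was 80 of 188 (42.6%, interval 35.4 to 50%). The single peak of APH alone was not a member. The DMSO share was thus close to that of the bases, and the intervals of the 4 lists with ATRi lay above it. Of all summits, 69 lay outside the span over which bases were counted but stay in the shares of peaks. They were not counted by list, and their part in this comparison was not tested.

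Neighbouring peaks of a list are counted singly here. After those less than 50 kb apart were merged, the share was 27.8% for DMSO, above the 21.7% before merging, with 10 members of 36 merged peaks. It was lower than before in the lists with ATRi, at 45.5% for ATRi, 51.8% for ATRi+APH at 9 h, 36.7% for ATRi+APH at 18 h and 40% for ATRi+shTIM. The lists also differ in how weak a peak they admit. The lowest −log10 p was 10.0 in DMSO, 10.7 in ATRi+shTIM, 21.7 in ATRi+APH at 18 h, 29.9 in ATRi and 34.0 in ATRi+APH at 9 h, and the part of these cutoffs in the shares was not tested.

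**Figure D1:**
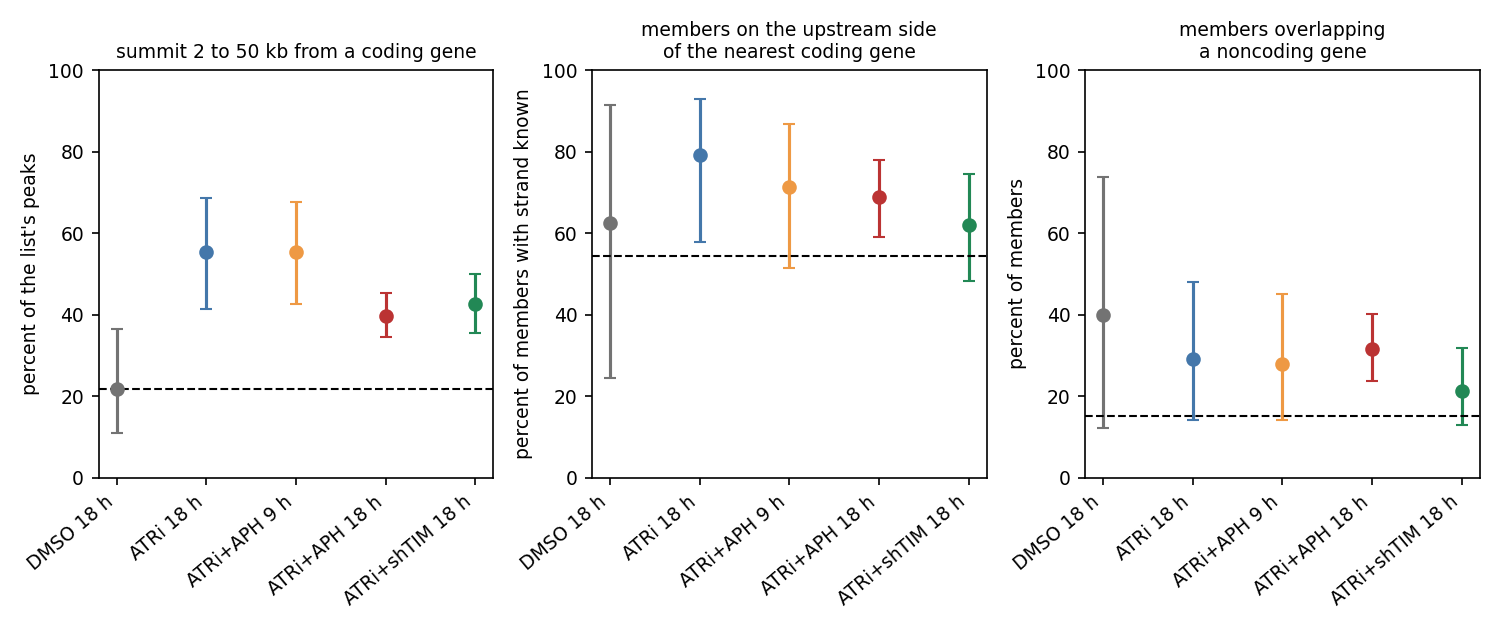
Shares in percent (points) with exact 95% intervals (bars) for the 5 lists that hold members, and the share of bases (dashed line): peaks that are members, members on the upstream side of the nearest coding gene, and members overlapping a noncoding gene. Member shares with ATRi lie between 39.8% and 55.4%, above the 21.8% of bases, while DMSO lies at 21.7%.

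Members of different lists that overlapped by at least 1 base were joined to 143 loci with 98 nearest coding genes. Of the loci, 18 had members in 4 lists, 21 in 3, 32 in 2 and 72 in 1. None of the 39 loci in 3 or 4 lists held a DMSO member. Folds below are the authors' fold enrichments of ChIP against input, given side by side because each list was made by itself. Some peaks at different loci have the same fold and −log10 p, so a fold need not be the ratio to input at that summit.

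Gdf3 encodes a TGF-beta family ligand of the early embryo. The peak beside it at chr6:122616002-122622318 was the strongest of ATRi+APH at 18 h, at 51.6-fold, and the widest member, at 6317 bp. Its folds were 14.7 in ATRi, 34.4 in ATRi+APH at 9 h and 35.6 in ATRi+shTIM, with widths of 2494, 3554 and 3140 bp. Gata4, which encodes a zinc finger factor of the developing heart and gut, had 2 such loci, of which the stronger, at chr14:63277107-63280371, was 15.9-fold in ATRi, where it ranked 1. It was 36.6-fold at 9 h, 50-fold at 18 h and 27.9-fold in ATRi+shTIM, and its widths in the 4 lists were 2362, 2311, 3265 and 847 bp. Both genes thus had a member in all 4 lists with ATRi and none in DMSO. At Gdf3 the peak was wider than 1 kb in each of the 4, and at Gata4 in all but ATRi+shTIM.

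Slc7a10 encodes a neutral amino acid transporter. The peak at chr7:35155300-35159869 upstream of it had folds of 13.3, 32.3, 45.5 and 36.3 in ATRi, ATRi+APH at 9 h, ATRi+APH at 18 h and ATRi+shTIM, and ranked 3 in the third of these and 6 in the last. Klf15 encodes a Krüppel-like transcription factor of metabolism. Its broad peak at chr6:90518716-90522651, on the downstream side, had folds of 11.1, 39.3, 42.4 and 34.0 in the same order of lists. Prkci, the gene of an atypical protein kinase C of cell polarity, had 11.3, 25.3, 38.3 and 10.2-fold peaks at chr3:31070608-31072746. Rnf145, a ubiquitin ligase of the endoplasmic reticulum, had 15.0, 20.4, 33.7 and 26.5-fold peaks at chr11:44500284-44505651. These folds lay above the median of the members in each list, which was 8.84, 18.5, 10.6 and 10.6, except for Prkci in ATRi+shTIM, where its peak was 272 bp wide.

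A different set of loci in 4 lists had narrow peaks. Vmn1r66 encodes a vomeronasal pheromone receptor. The peak at chr7:10285004-10285140 beside it was the strongest of ATRi+APH at 9 h, at 48.4-fold, yet only 137 bp wide. In ATRi, ATRi+APH at 18 h and ATRi+shTIM its folds were 11, 17.0 and 26.9 and its widths 156, 126 and 228 bp. Tekt4, the gene of a tektin of the sperm flagellum, had folds of 7.32, 25.6, 15.9 and 30.3 in the 4 lists, with widths of 151, 151, 150 and 230 bp. Ccdc66, the gene of a centrosomal and ciliary protein, had folds of 7.50, 10.9, 9.49 and 30.1. Mup7, a major urinary protein gene, had folds of 6.59, 12.7, 10.7 and 27.8 over the pseudogene Mup-ps1. The peaks at Tekt4, Ccdc66 and Mup7 thus ranked among the 10 strongest members of ATRi+shTIM.

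The remaining loci in 4 lists ranged widely in fold. Hspb8, a small heat shock protein gene, had folds of 6.28, 23.4, 5.37 and 9.42. Taar6, the gene of a trace amine receptor of the nose, had folds of 4.22, 14.5, 7.58 and 10.2, and Zfp825, a zinc finger gene, had 8.18, 19.2, 11.3 and 8.54. The other locus at Gata4 gave 11.7, 13.9, 30.0 and 20.4-fold peaks, the narrow locus at Klf15 gave 9.51, 24.8, 33.3 and 11.4, and Ptgr2, the gene of a prostaglandin reductase, gave 10.6, 30.7, 39.4 and 13.8. Zmat1, a zinc finger gene, had folds of 4.92, 14.3, 9.89 and 19.2. The last locus lay beside a predicted gene.

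By width these 18 loci fell apart. At 8 of them the ATRi+APH 18 h peak was wider than 1 kb, between 2139 and 6317 bp, and in all 8 it was the widest of the 4 lists. At the other 10 it was between 117 and 404 bp, and at 9 of these the widest peak was that of ATRi+shTIM. The narrowest peak of the whole list was 138 bp in ATRi+shTIM and 124 bp in ATRi. It was 97 bp and 84 bp in ATRi+APH at 9 h and 18 h. The part of this list-wide difference in the widths at narrow loci was not tested. The summits of the 4 lists lay within 50 bp of each other at 11 of the 18 loci.

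**Figure D2:**
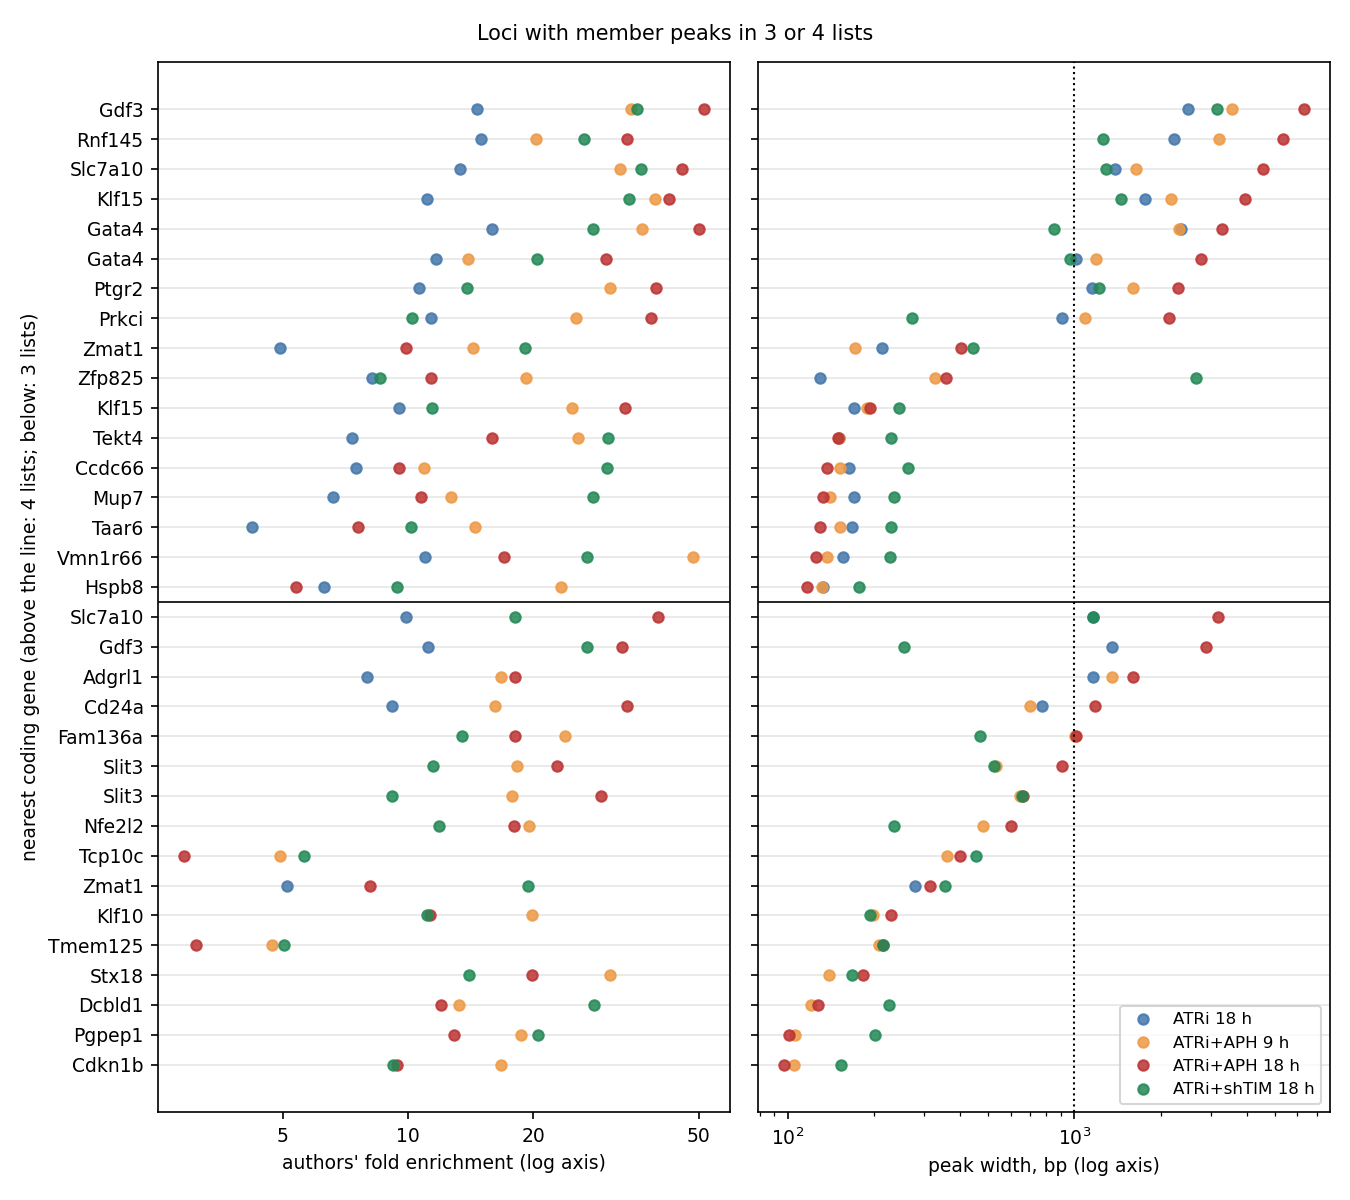
Authors' fold enrichment (left, log axis) and peak width in bp (right, log axis; dotted line at 1 kb) of the loci with members in 4 lists (above the line) or 3 lists (below), with 1 point per list, named by the nearest coding gene and ordered by width in ATRi+APH at 18 h. Loci beside predicted genes are left out, and folds of different lists are not on a common scale; the 8 broad loci in 4 lists are widest at 18 h of ATRi+APH.

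Loci in 3 lists included the other locus at Slc7a10, with folds of 9.87 in ATRi, 39.9 in ATRi+APH at 18 h and 18.1 in ATRi+shTIM, and the other locus at Gdf3, with 11.2, 32.7 and 27.0 in the same lists. Cd24a, the gene of a surface glycoprotein of immature blood and neural cells, had 9.14-fold, 16.1-fold and 33.5-fold peaks in ATRi and in ATRi+APH at 9 h and 18 h. Adgrl1, the gene of an adhesion receptor at synapses, was present in the same lists with folds of 7.97, 16.7 and 18.1. The Slit3 gene, which encodes a secreted guidance ligand, had loci with folds of 17.8, 29.2 and 9.16 and of 18.3, 22.8 and 11.5 in ATRi+APH at 9 h, at 18 h and in ATRi+shTIM.

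The last 3 lists also shared peaks near 9 other named genes. Nfe2l2, the gene of the oxidative stress regulator NRF2, had folds of 19.6, 17.9 and 11.9 there. Klf10, a Krüppel-like factor gene, had 19.8, 11.3 and 11.1, and Cdkn1b, the gene of the cell cycle inhibitor p27, had 16.7, 9.42 and 9.18 over the lncRNA gene Lockd. Stx18, the gene of a SNARE protein of the endoplasmic reticulum, had 30.7, 19.8 and 14.0. Pgpep1, a peptidase gene, had 18.7, 12.9 and 20.5. Fam136a had 23.8, 18.1 and 13.5, and Dcbld1 had 13.2, 12.0 and 28.0. The weakest were Tmem125, at 4.70, 3.09 and 5.04, and Tcp10c, at 4.93, 2.90 and 5.62. Members of ATRi were absent from all of these. A further locus at Zmat1 had folds of 5.12 in ATRi, 8.12 in ATRi+APH at 18 h and 19.5 in ATRi+shTIM, and 5 loci lay beside a predicted gene.

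Most members with ATRi were shared between lists. All 31 ATRi members overlapped a peak of another list, beside 96.4% of all ATRi peaks. All 36 members of ATRi+APH at 9 h did so, beside 100% of that list. Of 80 ATRi+shTIM members 70 did (87.5%, beside 84.0% of the list), and of 130 ATRi+APH 18 h members 78 did (60%, beside 55.0%). The 10 DMSO members overlapped no other list, beside 19.6% of DMSO peaks. With 10 peaks, the interval of that count of 0 reaches 30.8%, so whether DMSO members differ from their list is undecided. In the 4 lists with ATRi the members' shares lay near those of their lists.

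Between pairs of lists, all 31 ATRi members overlapped a peak of ATRi+APH at 18 h, and 31 of that list's 130 members (23.8%) overlapped ATRi. Of the 36 members at 9 h, 35 (97.2%) overlapped the 18 h list, and 36 of 130 (27.7%) did so in return. Of 80 ATRi+shTIM members 69 (86.3%) overlapped ATRi+APH at 18 h, and 74 of 130 (56.9%) did so in return. Over all peaks, 96.4% of ATRi overlapped ATRi+APH at 18 h, and 16.5% did so in return. For the 9 h list these shares over all peaks were 98.5% and 19.9%, and for ATRi+shTIM 83.5% and 50.8%. With a single list to itself, ATRi+APH at 18 h had 52 loci, ATRi+shTIM 10 and DMSO 10, and ATRi and ATRi+APH at 9 h none.

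**Figure D3:**
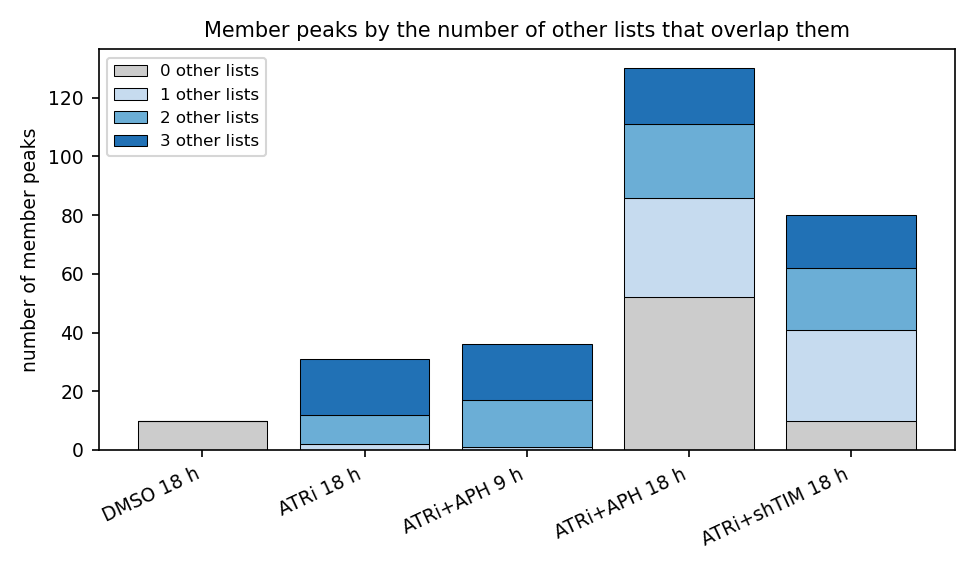
Number of member peaks in each list, divided by how many other lists have a peak overlapping them by at least 1 base. All 31 ATRi and 36 ATRi+APH 9 h members are shared, 52 of 130 ATRi+APH 18 h members are not, and none of the 10 DMSO members is.

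The 52 peaks found at 18 h of ATRi+APH alone had a median fold of 9.99, and 15 were wider than 1 kb. The 78 shared ones had a median of 11.1 and 20 were wider. Of the 52, 17 had a peak of another list no more than 10 kb away. The strongest stood beside Cd24a, at 30.5-fold, Ptgr2, at 29.2-fold, and Prkci, at 27.5-fold, in each case next to a shared locus. Others, picked after their values were seen, were 25.8-fold and 22.5-fold peaks near Cyp8b1, a gene of bile acid synthesis, a 22.3-fold peak near Plekhg6 and a 22.1-fold peak near Rif1, a regulator of replication timing.

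The 10 peaks found in ATRi+shTIM alone had folds between 3.24 and 8.69 and none was wider than 1 kb. They included 2 near the homeobox gene Nkx6-1, at 7.76-fold and 7.29-fold. Their median rank percentile was 78.5, so most stood low in their list. A peak near the odorant receptor gene Olfr323 was shared by ATRi+shTIM, at 29.4-fold, and ATRi+APH at 9 h, at 12.3-fold.

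The DMSO members were narrow, as were all DMSO peaks, whose median width was 95.5 bp and highest width 292 bp. Folds of the members lay between 4.56 and 7.18 and their widths between 80 and 106 bp, and each had its own nearest gene. The strongest were near Trib1, a pseudokinase gene, at 7.18-fold, and Mgam, the gene of the gut enzyme maltase-glucoamylase, at 6.97-fold. Further members lay near Dop1b at 6.48-fold, Rad23b, a nucleotide excision repair gene, at 6.44-fold, Lmntd1 at 6.13-fold, Slc25a43, a mitochondrial carrier gene, at 5.98-fold and Dynlt1b, a dynein light chain gene, at 5.98-fold. The other 3 lay near predicted genes. The median rank percentile by fold of the DMSO members was 26.1 (interval 6.52 to 56.5), with rank percentiles counted from the strongest peak. For the other DMSO peaks it was 59.8 (interval 43.5 to 76.1), and the intervals overlapped.

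Broad peaks made up 35.5% of the members in ATRi, 11 of 31, beside 32.1% of all ATRi peaks. In ATRi+APH at 9 h, 11 of 36 members (30.6%, beside 26.2%) were wider than 1 kb. At 18 h this held for 35 of 130 (26.9%, interval 19.5 to 35.4%, beside 20.2%), and for 8 of 80 in ATRi+shTIM (10%, interval 4.42 to 18.8%, beside 11.7%). No DMSO peak was that wide (0%). The median member width was 307 bp in ATRi, 243.5 bp at 9 h, 376.5 bp at 18 h and 361.5 bp in ATRi+shTIM. Other peaks of the last 2 lists had medians of 222 and 261 bp, with intervals of 195 to 277 bp and 234 to 302 bp. The member intervals were 292 to 535 bp and 254 to 468 bp, so only at 18 h of ATRi+APH did the intervals not overlap.

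In each list with ATRi, members held a larger share of the bound length than of the peak count, by little in ATRi and ATRi+shTIM. They held 110 kb of the 218 kb covered by ATRi+APH peaks at 18 h (50.5%) and 64.8% of the length covered at 9 h. In ATRi they held 56.8%, in ATRi+shTIM 45.1% and in DMSO 18.1%. Of the 35 members at 9 h with an overlapping peak at 18 h, 25 were wider at 18 h, with a median ratio of 1.09, and of the other peaks 19 of 29 were, with a median ratio of 1.06. For ATRi against ATRi+APH at 18 h, 19 of 31 members were wider with both drugs, with a median ratio of 1.20, beside 11 of 23 other peaks and a ratio of 0.979. For ATRi+shTIM, 33 of 69 members were narrower than their partner at 18 h of ATRi+APH, beside 31 of 88 other peaks. These differences between members and other peaks were not tested.

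The summit of a broad member usually lay close to one end of the peak. Of the 65 members wider than 1 kb, 46 (70.8%, interval 58.2 to 81.4%) had the summit within 20% of the width from an edge, and the median distance was 8.67% of the width. Of the 222 members of 1 kb or less, 32 (14.4%, interval 10.1 to 19.7%) did, with a median of 41.7%. Among other peaks the counts were 28 of 58 broad ones (48.3%, interval 35.0 to 61.8%) and 29 of 338 narrow ones (8.58%). In ATRi+APH at 18 h, 27 of 35 broad members had such a summit, and in ATRi+shTIM 3 of 8 did. An off-centre summit was thus more frequent in broad than in narrow peaks in members and others alike.

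Some members stood in pairs. Next to each other in a list, with a gap of at most 2 kb and both wider than 500 bp, were 23 pairs of members near 13 coding genes. A locus counts again in each list, and a peak between others, as at Slit3 and Fam136a, counts in 2 pairs. Pairs were sought among members only, so whether other peaks are paired as often is not known here. In 16 pairs both summits lay within 20% of the width from the gap, so that the signal was highest on its 2 banks. ATRi+APH at 18 h had 14 pairs, 11 of them of this kind, with gaps between 140 and 1870 bp. At Gata4 the summits lay 94 and 127 bp from a gap of 280 bp, and at Slc7a10 146 and 80 bp from a gap of 957 bp. At Gdf3 they lay 83 and 189 bp from a gap of 621 bp, at Prkci 75 and 89 bp from one of 461 bp, and at Ptgr2 89 bp on each side of one of 291 bp. Pairs of this kind at Gata4 were also present in ATRi, in ATRi+APH at 9 h and in ATRi+shTIM, with gaps of 293, 300 and 196 bp. Whether reads could be placed uniquely in these gaps was not tested.

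**Figure D4:**
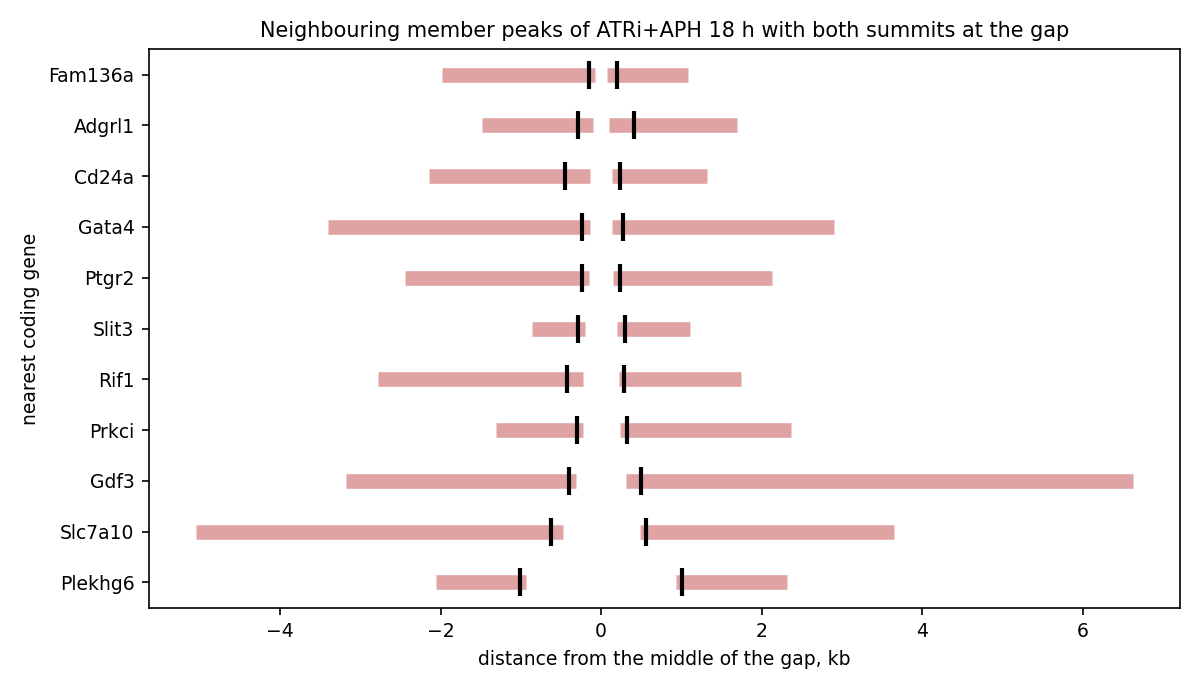
Neighbouring member peaks of ATRi+APH at 18 h (bars, to scale) whose summits (ticks) both face the gap between them, plotted as distance in kb from the middle of the gap and named by the nearest coding gene. Only the 11 of 14 pairs in this list that met this rule are plotted, with gaps of 140 to 1870 bp.

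Clusters of peaks concentrated the members at few sites. Joined within 10 kb, the 287 members formed 99 sites, of which 42 held 1 peak and 14 held 5 or more. Those 14 held 131 members. The largest, of 25 peaks, lay near the start of the annotated part of chromosome 10 beside a predicted coding gene, at chr10:3109870-3117163. It held 6 peaks of ATRi, 2 of ATRi+APH at 9 h, 9 at 18 h and 8 of ATRi+shTIM, with folds between 4.32 and 18.9. The next, of 18 peaks near Zmat1 at chrX:135040271-135054732, lay entirely in 1 lncRNA gene and had folds between 4.92 and 19.5. The third, of 15 peaks, was that of Klf15, at chr6:90513950-90522651, followed by Zfp825 with 11. The first and the second were chains of narrow peaks, all under 1 kb.

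With the strand known for 218 members, 149 (68.3%, interval 61.7 to 74.5%) lay on the upstream side of the nearest coding gene, beside 54.3% of bases 2 to 50 kb away. By list the counts were 5 of 8 in DMSO, 19 of 24 in ATRi (79.2%), 20 of 28 at 9 h (71.4%), 69 of 100 at 18 h (69%, interval 59.0 to 77.9%) and 36 of 58 in ATRi+shTIM (62.1%). The 2 largest sites are both upstream and hold 43 of these members. Without them 106 of 175 (60.6%, interval 52.9 to 67.9%) lay upstream, and counted by site 43 of 73 (58.9%, interval 46.8 to 70.3%) did, so that the interval includes the share of bases. The strand was not known for 69 members, those near Gata4 and Gdf3 among them. Over all peaks outside coding genes with the strand known, 211 of 370 (57.0%) lay upstream. By list that share over all such peaks was 75% in DMSO, 75.9% in ATRi, 63.2% at 9 h, 54.9% at 18 h and 47.5% in ATRi+shTIM.

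Noncoding genes overlapped 81 members (28.2%, interval 23.1 to 33.8%). They cover 15.1% of bases in this range. A peak can reach one with its edge, but at 79 members (27.5%, interval 22.4 to 33.1%) the summit itself lay in one. Of the 396 other peaks, 38 (9.60%, interval 6.88 to 12.9%) overlapped one. These were 15 of 216 peaks in or within 2 kb of coding genes (6.94%) and 23 of 180 farther than 50 kb (12.8%). The share of bases in noncoding genes was not computed at those distances. Whether members and other peaks differ beyond their own background is thus not known here. By list, 4 of 10 DMSO members did so (40%, beside 17.4% of all DMSO peaks), 9 of 31 in ATRi (29.0%, beside 23.2%), 10 of 36 at 9 h (27.8%, beside 21.5%), 41 of 130 at 18 h (31.5%, beside 18.3%) and 17 of 80 in ATRi+shTIM (21.3%, beside 12.8%). Without the 2 largest sites the count was 63 of 244 (25.8%). By site it was 28 of 99 (28.3%, interval 19.7 to 38.2%). The genes were lncRNAs at 57 members and pseudogenes at 17.

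tRNA genes lay under 8 members, which held 10 of the 403 tRNA genes used. Overlap with tRNA genes was not counted for the other peaks, so whether members differ from them in this is not known here. Of the 8 members, 2 were in ATRi and 6 in ATRi+APH at 18 h, and none was in the other lists. The leucine tRNA gene n-TLtag1, at chr7:120835479-120835560, lay under an 11.5-fold peak of ATRi and a 10.9-fold peak of ATRi+APH at 18 h. The histidine tRNA genes n-THgtg3 and n-THgtg5, near Shf on chromosome 2, lay under an 8.09-fold ATRi peak, and n-THgtg5 also under a 7-fold peak at 18 h. A 9.92-fold peak at chr13:21169681-21170284, upstream of the ubiquitin ligase gene Trim27, overlapped the tRNA genes n-TMcat15, n-TLaag7 and n-TLaag5. In ATRi the 2 peaks ranked 11 and 36 of 56, and at 18 h the 6 ranked between 130 and 240 of 327.

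Families were set by gene symbol with earlier results of these data known, so an excess in one is no independent support. For 28 members (9.76%) the nearest gene was in the group named developmental transcription factors, beside 1.37% of bases 2 to 50 kb from coding genes. Only 4 genes accounted for them, Gata4, Klf10, Klf15 and Nkx6-1, and 15 of these members lay at Klf15. The 4 genes are 4.08% of the 98 nearest genes, beside 0.823% of all coding genes. Zinc finger genes of the Zfp class were nearest to 12 members at 2 genes, Zfp825 and Zfp648. That is 2.04% of the 98 genes, beside 1.97% of all coding genes and 1.85% of bases. Chemosensory receptor genes were nearest to 10 members at 3 genes (3.06%), beside 7.03% of coding genes and 6.71% of bases. Solute carrier genes were nearest to 11 members at 4 genes (4.08%), beside 1.74% of coding genes and 1.72% of bases, and one of them was Slc25a33, with a 2.83-fold peak in ATRi+APH at 18 h. Ubiquitin ligase genes had 5 members at 2 genes (2.04%), beside 1.06% of coding genes and 0.789% of bases. The TGF-beta family had 8 members, all at Gdf3 (1.02% of genes), beside 0.144% of coding genes and 0.185% of bases. C-type lectin, claudin, keratin, serpin and replication stress genes had none, and each of these families covers 0.351% or less of the bases in this range. Members of a site share their gene, so genes rather than members are the count to read here, and 98 genes are few for any family.

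Members lay at all distances in the range. The median was 16591 bp (interval 13549 to 19807 bp). Between 2 and 5 kb there were 47 members (16.4%, beside 14.3% of the bases in range), between 5 and 10 kb 61 (21.3%, beside 18.4%), between 10 and 20 kb 56 (19.5%, beside 25.4%) and between 20 and 50 kb 123 (42.9%, beside 41.9%). The nearest to the lower bound was the 29.2-fold Ptgr2 peak at 2010 bp, and the nearest beyond it lay 1684 bp from Rgs20. The member nearest the upper bound was that of Mgam in DMSO, at 48696 bp, and beyond the bound stood a site near Rgma, which encodes a repulsive guidance molecule, whose summits lay 50784 to 50812 bp away and whose fold was 37.6 in ATRi+APH at 18 h.

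**Figure D5:**
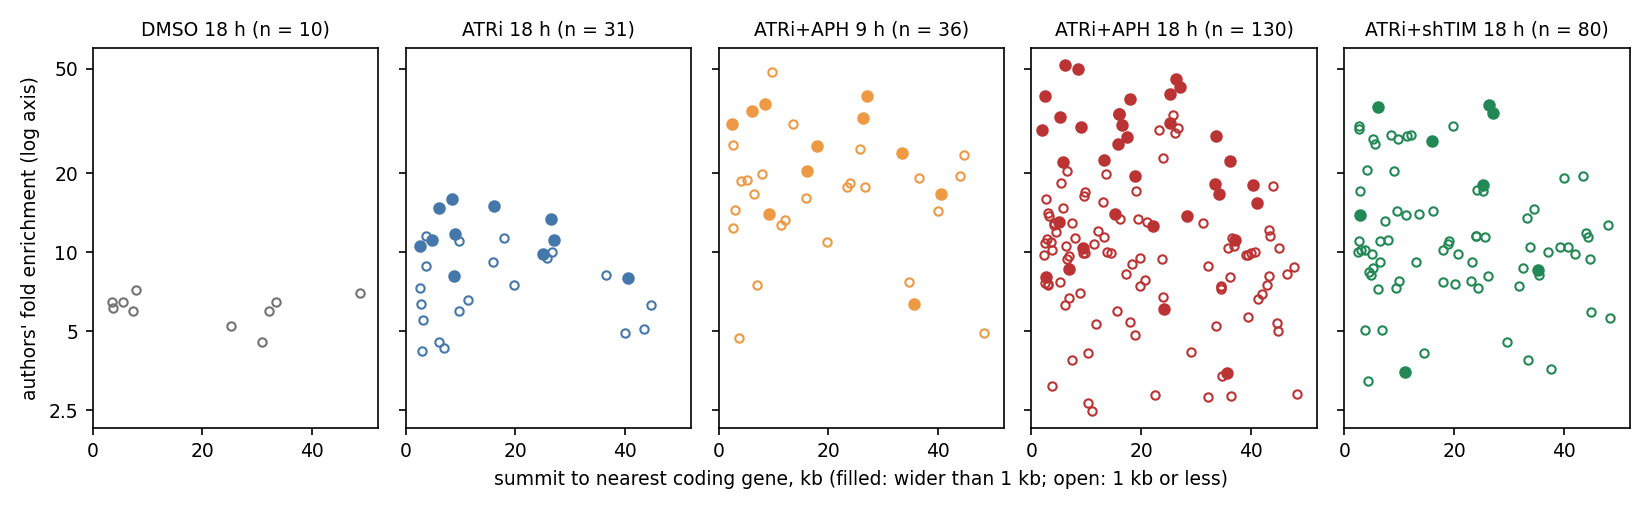
Authors' fold enrichment (log axis) of each member against the distance in kb from its summit to the nearest coding gene, in the 5 lists; filled points are wider than 1 kb. Broad peaks are spread from about 2 kb outwards, and the 10 DMSO members stay between 4.56 and 7.18-fold.

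Within their lists, members ranked a little above the middle by fold in ATRi+APH at 18 h, with a median rank percentile of 42.2 (interval 31.5 to 50.2) beside 56.3 for the other peaks of the list. Their median fold was 10.6 (interval 9.89 to 12.1) beside 9.03. In ATRi+shTIM the medians were 46.3 for rank and 10.6 for fold, beside 56.6 and 9.23. In ATRi the median rank was 51.8 and at 9 h 46.2, beside 50 and 50.8. The intervals of these medians overlapped between members and others in each of the 4 lists.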

How the data were processed

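RPA ChIP-seq and input chromatin of ATR+/- MEFs were compared by the authors, who deposited 1 peak list per treatment from all its libraries. MACS2 2.1.0, STAR 2.5.2a, SAMtools 0.1.19, Picard 1.141 and bcl2fastq 2.17.1.14 and the build mm10 are named in the submitters' processing notes, without their settings. For each peak the deposited lists give a score (10 times the −log10 p in all 683 peaks, not used further) and a fold enrichment of ChIP against input. They also give a −log10 p-value, a −log10 q-value and the summit. Read depth per library is unknown, so it sets no interval here.

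From these, the distance of each summit to the nearest of 21517 RefSeq protein-coding gene bodies (GRCm38.p6, chromosomes 1 to 19 and X) was computed. Strand came from RefSeq promoter windows, known for 17273 of them. Noncoding overlap and sharing required 1 bp. Of 49997 gene entries, 49205 were used, 345 entries on scaffolds being left out. Of all summits, 69 lay outside the annotated span over which bases were counted. Coordinates are 1-based. Shares have exact Clopper-Pearson intervals and medians binomial intervals at 95%, which treat peaks as independent. Lists pool replicates, so no test was run. Distances, sides and intervals were checked on simulated data. Python 3.11.15, pandas 2.3.3 and SciPy 1.17.1 were used.

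The members, gene families and settings were chosen with earlier results of these data known. Genes named are those nearest to the 10 members of highest fold per list, to loci in at least 3 lists, to the members nearest each bound and to members of the families; names outside this rule are those of the tRNA genes, of the genes with a printed sequence and of peaks found in 1 list, chosen after their values were seen. Genes known only by Gm, Rik or clone names were otherwise counted, and 1 gene that the rule names is not reported here. Alternatives were distance from the peak edge, coding genes without predicted names, merging within 1 kb, −log10 q of at least 10, summit in the noncoding gene, rank by −log10 p, 50% coverage or 1 kb for sharing and, chosen after seeing the data, merging within 50 kb and leaving out the 2 sites with most members. Planned sequence windows at the summits were not run, since no genome was used here; promoter windows replaced them.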

Additional observations from a re-analysis of the deposited data

How the results depend on the processing

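Shares and medians were recomputed under 10 alternative settings, which gave 200 values for 30 results, and 191 stayed inside the interval of the value reported. Merging peaks under 1 kb apart raised the share of members wider than 1 kb to 37.1% in ATRi+APH at 18 h and to 23.3% in ATRi+shTIM, and merging within 50 kb, chosen after seeing the data, raised them to 43.0% and 27.8%, since merged peaks are longer by construction. With a −log10 q of at least 10, DMSO kept 1 member, for which the upstream share was 0% and the noncoding share 100%. At the same cutoff the median rank percentile of ATRi+shTIM members was 52.6, and 98.4% of them overlapped another list. When a peak within 1 kb counted as shared, 70.8% of ATRi+APH 18 h members were shared. That rule is looser than overlap by 1 bp, so it can only raise the share. The cause of the changes in ATRi+shTIM at the −log10 q cutoff was not tested. Leaving out the 2 sites with most members kept all 30 values inside their intervals, but for ATRi+shTIM it lowered the upstream share to 50% and the noncoding share to 16.7%.

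No paired analysis was possible because each list pools its libraries and no result comes from a test, and leaving out a replicate was not possible for the same reason. Cutoffs differ between lists and depth is unknown, so absence from a list does not show that RPA was absent.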
